A study of Mus musculus with 3 samples.

Results

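Regions next to Hox genes were taken from Ets-1 ChIP-seq of Min6 cells, a line of mouse pancreatic β-cells that came from an insulinoma and secretes insulin. The libraries were an Ets-1 precipitate of cells infected for 24 h with an adenovirus for Ets-1 (Ad-Ets-1), an Ets-1 precipitate of cells infected for 24 h with a control adenovirus for GFP (Ad-GFP) and an input. All cells were grown in 25 mM glucose and fixed in 1% formaldehyde for 10 min, and which virus, if any, the input cells received is not stated. With 1 library in each group there are no replicates, so the spread between samples is unknown and differences are described without p-values. A region was assigned to the Hox clusters where the deposited annotation gives a Hoxa, Hoxb, Hoxc or Hoxd gene with a number as its nearest gene. This rule uses no measured value, and it gave 66 of the 543367 regions of the comparison table, next to 21 genes. It gave 34 of the 237322 peaks called with Ad-Ets-1 and 35 of the 339856 peaks called with Ad-GFP. Coordinates are those of mm10 (GRCm38), 1-based.

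The Hox genes of the mouse lie in 4 clusters and encode homeodomain transcription factors. The order of the genes along a cluster follows the order in which they act along the body axis, from low numbers at the head end to high numbers at the tail end, and genes with the same number in different clusters form a paralog group. Polycomb complexes keep the clusters silent where they are not used, Trithorax complexes and retinoic acid promote their use, and Pbx and Meis proteins bind DNA together with Hox proteins. Ets-1, the founding member of the ETS family, binds DNA sites with a GGAA core.

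Library totals recovered from the deposited values were 1938473 reads with Ad-Ets-1, 1775757 with Ad-GFP and 3937473 in the input. Even numbers made up 72.0%, 74.5% and 19.0% of the nonzero counts in these libraries. For this reason, intervals of ratios take 2 reads as 1 fragment in the precipitated libraries, while each input read counts by itself. All intervals are at the 95% level and cover counting error only. Where a library had 0 reads in a region, 3 reads stood in for it as a floor in the ratio, and the interval beside it is that of the observed counts.

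All Hox regions held few reads. The 66 regions together held 75 reads with Ad-Ets-1, 81 with Ad-GFP and 4 in the input. The highest single region held 6 reads with Ad-Ets-1, 5 with Ad-GFP and 1 in the input. Exactly 2 reads were found in 21 regions with Ad-Ets-1 and in 23 with Ad-GFP, and 30 regions held no read in each. In 52 regions, 78.8% (exact binomial interval 67.0% to 87.9%), neither precipitated library held more than 2 reads, against 80.8% of all other regions. A region of 5 or more reads in either precipitated library was found 2 times among the 66, or 3.03%, against 4.13% of all regions. With a limit of 4 or more reads the count was 9 of 66, or 13.6%, against 14.7% of all regions. The read depth of Hox regions was close to that of the rest of the table on each of these measures.

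**Figure D1:**
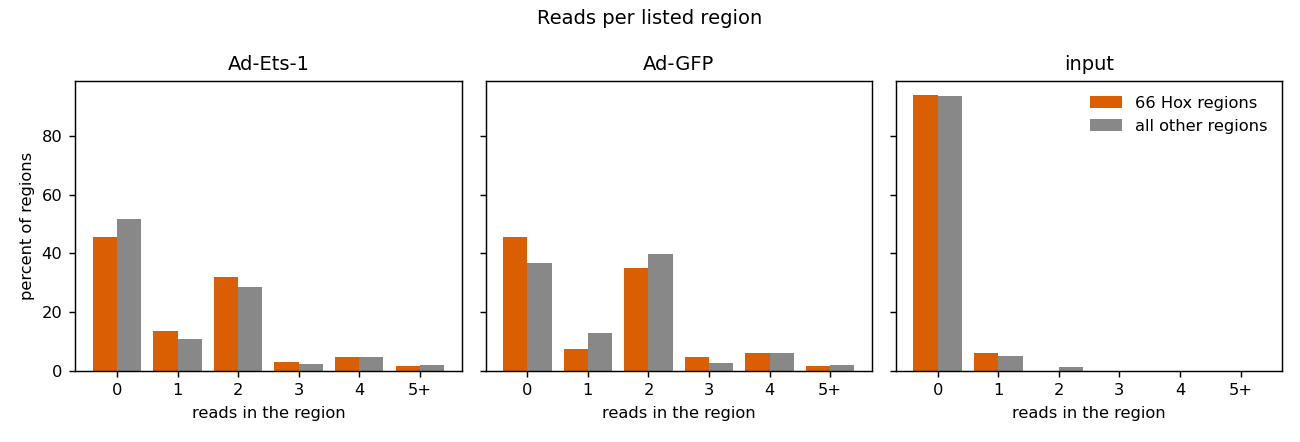
Share of listed regions (percent, vertical axis) by the number of reads in the region (horizontal axis, with 5 and more together) in each library, for the 66 Hox regions and all other regions. In the precipitated libraries most Hox regions hold 0 or 2 reads, and 62 of the 66 hold none in the input.

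The 3 sequences below are those of Hox regions among the 9 with 4 or more reads that hold a long simple repeat. They are shown because the Hox region with the most Ad-Ets-1 reads, at Hoxc12, is one of them. Each is the plus strand of the reference genome (RefSeq, GRCm38.p6), with GGAA and its complement TTCC in capitals.
Hoxc12 chr15:102936296-102936544: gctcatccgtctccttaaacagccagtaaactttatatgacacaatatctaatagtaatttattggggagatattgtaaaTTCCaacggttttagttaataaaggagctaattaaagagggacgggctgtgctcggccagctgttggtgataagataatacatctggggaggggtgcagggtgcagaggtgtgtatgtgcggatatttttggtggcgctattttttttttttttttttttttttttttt
Hoxb1 chr11:96364278-96364526: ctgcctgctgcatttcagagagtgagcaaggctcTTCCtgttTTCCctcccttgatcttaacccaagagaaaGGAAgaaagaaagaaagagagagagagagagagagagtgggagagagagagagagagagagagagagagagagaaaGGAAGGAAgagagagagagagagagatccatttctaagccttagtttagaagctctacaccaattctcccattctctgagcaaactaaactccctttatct
Hoxc13 chr15:102884130-102884379: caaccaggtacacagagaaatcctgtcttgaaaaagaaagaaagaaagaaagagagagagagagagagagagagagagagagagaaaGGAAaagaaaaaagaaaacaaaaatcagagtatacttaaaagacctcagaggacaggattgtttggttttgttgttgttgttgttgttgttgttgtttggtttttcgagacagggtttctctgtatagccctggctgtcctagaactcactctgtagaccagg

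The Hoxc12 sequence ends in a run of 29 T and has a GC content of 37.8%. It holds 1 TTCC and no GGAA. The Hoxb1 sequence holds long GA repeats, with 3 GGAA and 2 TTCC in and around them. The Hoxc13 sequence is a 250-base stretch of a wider region, of which 92.1% is marked as repeat in the reference. Runs of 15 or more A or T, or a pair of bases (AG, CT, AC, GT or AT) repeated 10 or more times, were found in 3 of the 9 Hox regions with 4 or more reads, 33.3% (exact binomial interval 7.49% to 70.1%), against 13.6% of all other regions of that depth. Over all Hox regions the count was 10 of 66, 15.2% (7.51% to 26.1%), against 6.20% of all other regions. This measure was chosen after the sequences were seen. The part of these repeats in the read counts was not tested.

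The Hox gene with the most reads at its promoter with Ad-Ets-1 was Hoxc12, one of the posterior genes. Its region at chr15:102936296-102936544, 213 bp upstream of the start site, held 6 reads with Ad-Ets-1, 0 with Ad-GFP and 1 in the input. This is 1.83 times the Ad-GFP floor of 3 reads after scaling, and the exact interval of the ratio begins at 0.379, so it includes 1. The authors' deposited log2 value was 2.68, a value computed on counts plus 1. In the authors' deposited peak list this peak had a fold enrichment of 3.60 and a −log10 q of 1.42. It was the Hox peak with the highest fold in the Ad-Ets-1 list, and its fold lay at the 99th percentile of that list, which was also 3.60. The largest fold of the whole list was 16.4.

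The Hox region with the most Ad-GFP reads was at Hoxa10, a posterior gene needed in the uterus and in the patterning of the lumbar spine. Summed over all promoter regions of a gene, Hoxb7 held more Ad-GFP reads, 8 against 7 at Hoxa10. The region over the 5′ end of Hoxa10 at chr6:52240554-52240887 held 0 reads with Ad-Ets-1, 5 with Ad-GFP and 1 in the input. The Ad-GFP value was 1.82 times the Ad-Ets-1 floor, and the interval of the ratio of Ad-Ets-1 to Ad-GFP ran up to 2.66. The authors' deposited peak list for Ad-GFP gave it a fold of 3.65 and a −log10 q of 1.50, the highest among Hox peaks there. Each of these promoters held more than 3 reads in 1 of the precipitated libraries and no read in the other, in opposite directions. Each was named for the deepest Hox region of its library, and that region was called there alone. The opposite directions thus largely restate this choice.

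Hoxb7 and Hoxb1 carried the deepest of the regions whose nearest gene is a Hoxb gene. Hoxb7, a gene of the central part of the cluster, had a region 579 bp upstream of its start at chr11:96285748-96286044 and one near its 3′ end at chr11:96289636-96289909, which the deposited annotation places in the promoter class by the start of another Hoxb7 transcript. Each held 0 reads with Ad-Ets-1, 4 with Ad-GFP and 0 in the input. The other Hoxb7 region, at chr11:96284686-96284934, held 2, 0 and 0 reads in the same libraries. Hoxb1, the gene of hindbrain segment identity, had the GA-rich region printed above, 1226 bp upstream, with 4, 0 and 0 reads. Hoxb7 thus held reads mainly with Ad-GFP and the Hoxb1 promoter region only with Ad-Ets-1. Over its 4 regions Hoxb1 held 4 reads with Ad-Ets-1 and 7 with Ad-GFP, and 3 of them were called with Ad-GFP alone. Every region of both genes was called in 1 list alone, so the split largely restates these calls. The interval for each region of 4 reads included 1.

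Among the other regions of 4 reads, a region at the annotated start of Hoxc5, chr15:102967185-102967693, held 4, 0 and 0 reads with Ad-Ets-1, Ad-GFP and the input. This region also lies within 1 kb of the 5′ end of Hoxc10 in the GENCODE gene annotation, so it cannot be given to one of these genes. A distal region 18247 bp downstream of the Hoxd1 start, chr2:74781227-74781843, held 4, 0 and 0 reads. The distal region of Hoxc13 printed above in part, chr15:102884039-102884469, held 0, 4 and 0 reads, and so did a region 4125 bp downstream of the Hoxc11 start, chr15:102958552-102959002. Hoxc13 is a gene of hair and nail formation. Among the regions whose nearest gene is a Hoxd gene, no promoter region held more than 2 reads: the deepest by the naming rule, Hoxd4 at chr2:74720692-74720929, held 0, 2 and 0 reads, and another Hoxd4 promoter region held 2, 0 and 0. The 9 deepest Hox regions included 4 with reads from the Ad-Ets-1 library and 5 with reads from the Ad-GFP library, and none with reads in both, which allows a share of up to 33.6%. Among all other regions of that depth 22.7% held reads in both, 35.1% with Ad-Ets-1 alone and 42.2% with Ad-GFP alone.

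Reads in both precipitated libraries were rare. Of the 66 regions, 6 (9.09%) held at least 1 read in each, against 11.8% of all other regions. Peaks were called in both lists at 3 of 66 regions, or 4.55%, against 6.13% of all regions. These were exon 2 of Hoxa6 at chr6:52206590-52206864 with 2, 2 and 0 reads with Ad-Ets-1, Ad-GFP and the input, a region 29299 bp downstream of Hoxd1 at chr2:74792279-74792557 with 2, 2 and 0 reads, and a region 21593 bp upstream of Hoxc13 at chr15:102899237-102899510 with 2, 1 and 0 reads. The other regions were called with Ad-Ets-1 alone (31 of 66, 47.0%, against 37.5% of all regions) or with Ad-GFP alone (32 of 66, 48.5%, against 56.4% of all regions). Most of these calls rested on 1 or 2 reads in 1 library.

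**Figure D2:**
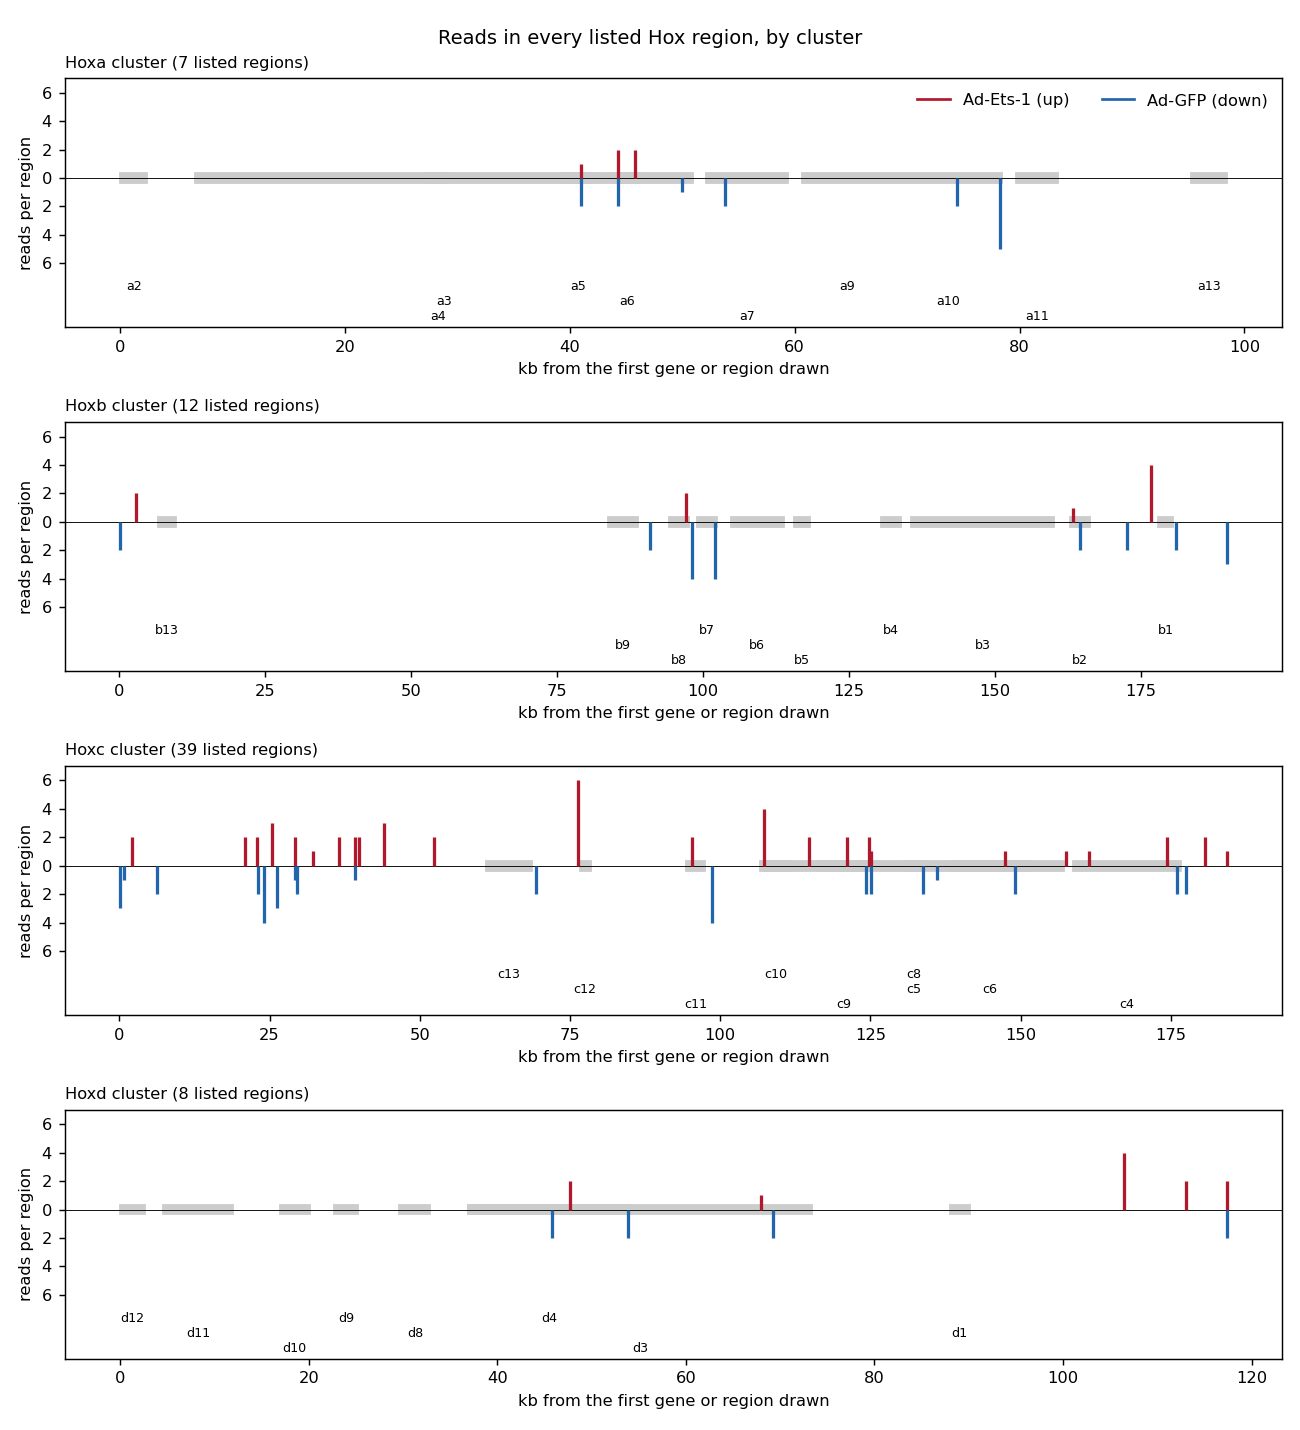
Reads per listed region (vertical axis, Ad-Ets-1 upward and Ad-GFP downward) along each Hox cluster (horizontal axis, kb from the first gene or region drawn), with the protein-coding genes reported here as grey bars named below. No bar exceeds 6 reads, the bars of the 2 libraries seldom share a position, and the left part of the Hoxc map holds 18 regions upstream of Hoxc13.

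By cluster, the 7 Hoxa regions held 5 reads with Ad-Ets-1, 14 with Ad-GFP and 1 in the input, a scaled ratio of Ad-Ets-1 to Ad-GFP of 0.327 (exact conditional interval 0.0559 to 1.36). The 12 Hoxb regions held 9, 21 and 1 reads, a ratio of 0.393 (0.107 to 1.23). The 39 Hoxc regions held 50, 38 and 2 reads, a ratio of 1.21 (0.669 to 2.20). The 8 Hoxd regions held 11, 8 and 0 reads, a ratio of 1.26 (0.299 to 6.07). The Hoxa and Hoxb values lay below 1 and the Hoxc and Hoxd values above 1, but the interval of every cluster included 1. Over all 66 regions the ratio was 0.848 (0.545 to 1.32), and over all other regions it was 0.781 (0.778 to 0.784), which lies inside the Hox interval. The median of the deposited log2 values was −0.13 over the Hox regions and −1.13 over all other regions.

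The deposited log2 values move with single reads. A region with 1 read with Ad-Ets-1 and none with Ad-GFP, such as that of Hoxb2 at chr11:96351025-96351273, has a deposited log2 of 0.87. The reverse, as at Hoxa3, gives −1.13. A log2 of 1 or more was found at 23 of 66 Hox regions, 34.8%, against 29.9% of all regions. A log2 of −1 or less was found at 30 of 66, 45.5%, against 52.6% of all regions. Neither count sets the Hox regions far from the table as a whole.

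Against the input, the summed Hox reads were 38.1 times higher with Ad-Ets-1 (13.8 to 146) and 44.9 times higher with Ad-GFP (16.4 to 172). All other regions gave 14.4 and 18.5, and all other regions with fewer than 20 reads gave 28.2 and 39.7. Regions entered the table as peaks of a precipitated library, so these ratios describe the listing and are no measure of enrichment. In the input, 62 of the 66 Hox regions (93.9%) held no read, against 93.6% of all other regions. The 4 regions with 1 input read were the Hoxa10 and Hoxc12 promoters, a region 6337 bp upstream of Hoxb13 and a region beyond the 3′ end of Hoxc4.

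In the deposited peak lists, 1 of 34 Hox peaks called with Ad-Ets-1 had a q of at most 0.05, against 1.38% of that list, and it was the Hoxc12 peak. With Ad-GFP it was 1 of 35, the Hoxa10 peak, against 0.826% of that list. The largest q of the Ad-Ets-1 list was 0.820, shared by 32 of the 34 Hox peaks. Besides Hoxc12, the exception was a peak upstream of Hoxc13 at chr15:102885379-102885627, with a deposited fold of 2.78 and 3, 0 and 0 reads. The next fold, 1.86, was shared by many peaks, the Hoxb1 promoter peak among them, and is also the median of the list. Peaks below the largest q were thus 2 of 34, against 14.9% of that list. With Ad-GFP they were 8 of 35, against 11.7% of that list. The 7 besides Hoxa10 lay at Hoxb7 (the 2 regions of 4 reads), Hoxb1, Hoxb8, Hoxc11 and Hoxc13 (2 regions), with deposited folds between 2.74 and 2.81. The Hoxb1 peak here, at chr11:96377376-96377634, held 0, 3 and 0 reads and is a different region from the Hoxb1 promoter above.

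Of the 38 protein-coding Hox genes considered, 21 were the nearest gene of at least 1 region, 55.3%, against 84.4% of all protein-coding genes. The Hoxc cluster had regions at 8 of 9 genes, against 5 of 11 in Hoxa, 5 of 10 in Hoxb and 3 of 8 in Hoxd. The 17 genes without one were 6 genes of the Hoxa cluster, Hoxb3, Hoxb4, Hoxb5, Hoxb6 and Hoxb9 of the Hoxb cluster, Hoxc10, and Hoxd8, Hoxd9, Hoxd10, Hoxd11 and Hoxd12. Promoter regions were listed for 14 of the 38 genes, 36.8%, against 52.3% of all protein-coding genes. For those called with Ad-Ets-1 the counts were 11 of 38, against 32% of all, and with Ad-GFP 7 of 38, against 41.3% of all. Gene length and spacing, which set how many bases have a gene as their nearest, were not accounted for in these counts.

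A count that does not depend on the nearest gene used the 5′ ends of genes in GENCODE. Within 1 kb of the 5′ end, 9 of 38 Hox genes had a region, 23.7% (11.4% to 40.2%), against 30.4% of 21899 other protein-coding genes. Peaks called with Ad-Ets-1 lay there at 6 of 38, 15.8% (6.02% to 31.3%), against 16.5%. In both counts Hoxc5 and Hoxc10 enter through the same region, so the genes are not all separate and the intervals do not allow for this. Peaks called with Ad-GFP lay there at 3 of 38, 7.89% (1.66% to 21.4%), against 20.7%. No Hox 5′ end had a peak in both lists, which allows a share of up to 9.25%, against 6.77% of other genes. The Ad-Ets-1 share was close to that of other genes, and the Ad-GFP share was lower with an interval that just includes their value.

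By paralog group, the anterior groups 1, 2 and 3 had 7, 2 and 3 regions. Group 1, which holds Hoxb1 and Hoxd1, had 12 reads with Ad-Ets-1 and 9 with Ad-GFP. Group 4, with Hoxc4 and Hoxd4, had 10 regions with 9 and 8 reads. Groups 5 to 12 had between 2 and 5 regions each. Group 7, with Hoxa7 and Hoxb7, had 2 reads with Ad-Ets-1 and 10 with Ad-GFP, and group 10, in which only Hoxa10 had regions, had 0 and 7. Group 13 had 20 regions with 25 and 21 reads, and 18 of these regions belonged to Hoxc13.

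The Hoxc13 regions lay outside the cluster proper, in a stretch of 52.4 kb upstream of the gene. They ran from 60.7 kb to 8.51 kb before its start, all in the distal intergenic class. The 18 regions held 23 reads with Ad-Ets-1, 19 with Ad-GFP and 0 in the input, and no region held more than 4. Peaks were called there with Ad-Ets-1 alone at 10 regions, with Ad-GFP alone at 7 and in both at 1, where all regions gave 37.5%, 56.4% and 6.13%. Their density was 34.3 per 100 kb (exact Poisson interval 20.3 to 54.3), against 20.5 per 100 kb over the genome. The ends of the stretch were set by the regions themselves, so the density is a description. The reads were spread over both libraries.

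Inside the clusters listed regions were sparser than elsewhere. Between the outermost considered Hox genes of each cluster in GENCODE, 58 regions of any nearest gene lay over 485 kb, a density of 11.96 per 100 kb (9.08 to 15.5), against 20.5 over the genome, 19.3 (16.4 to 22.6) in 3 histone gene clusters and 28.2 in 34 olfactory receptor clusters. Called with Ad-Ets-1 the Hox density was 4.54 per 100 kb (2.84 to 6.87), against 8.95 over the genome. Called with Ad-GFP it was 8.04 (5.72 to 10.99), against 12.8 over the genome. The Hoxa and Hoxb clusters had 9.50 (4.55 to 17.5) and 8.05 (4.40 to 13.5) regions per 100 kb, and the Hoxc and Hoxd clusters had 17.3 (10.6 to 26.7) and 15.5 (8.49 to 26.1). The intervals of Hoxc and Hoxd include the genome value and those of Hoxa and Hoxb do not. With spans that run only between members with a listed region the density was 12.9 (9.60 to 16.9) over all clusters, and 27.8 (14.4 to 48.6) in Hoxd, whose span then shrinks. With 50 kb added to either side it was 16.7 (13.95 to 19.7).

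**Figure D3:**
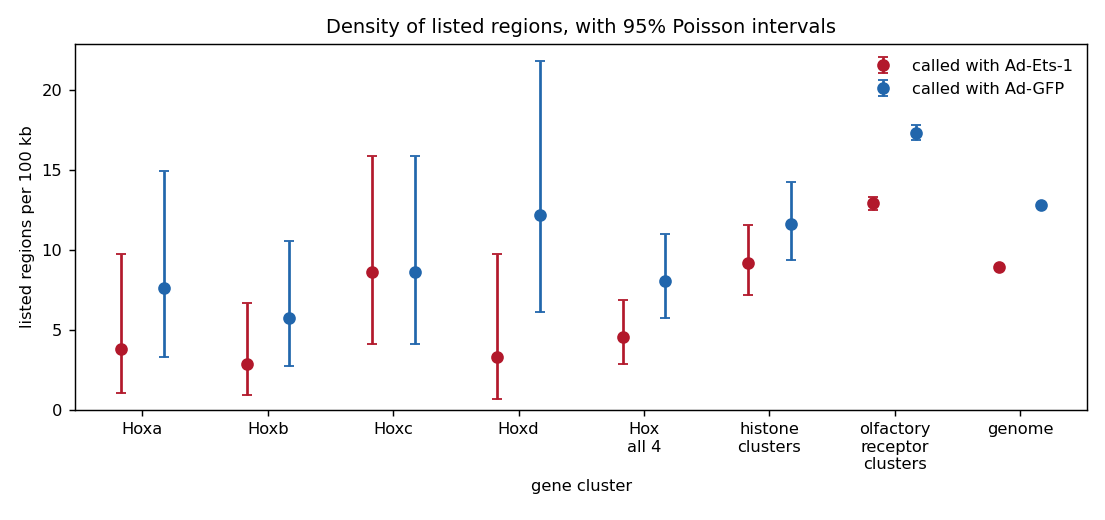
Listed regions per 100 kb (vertical axis) called with Ad-Ets-1 and with Ad-GFP in each Hox cluster, all Hox clusters, histone clusters, olfactory receptor clusters and the genome (horizontal axis). Points are densities, spans run between the outermost GENCODE genes of a cluster, and bars are 95% exact Poisson intervals; over all Hox clusters the densities are 4.54 and 8.04, below the genome's 8.95 and 12.8.

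Marked repeats fill a smaller share of the clusters than of the genome. Repeats marked in the reference cover 13.4%, 24.6%, 15.9% and 14.3% of the Hoxa, Hoxb, Hoxc and Hoxd spans, against 36.4% of the genome. Within the listed regions themselves a mean of 22.7% of bases was marked in Hox regions, against 36.1% in all other regions. Regions with at least 50% of their bases marked were 5 of 66 among Hox regions, 7.58%, against 29.1% of all other regions. In 200 bp windows at peak summits the median GC content was 45.3% at Hox peaks of the Ad-Ets-1 list, against 40.5% at all others of that list. In the Ad-GFP list it was 44.5%, against 40.5%. All other promoter peaks had medians of 44.5% in the Ad-Ets-1 list and 43.5% in the Ad-GFP list. These are close to the medians of Hox peaks of all classes together. Hox promoter peaks alone had higher medians, 49.25% over 12 windows of the Ad-Ets-1 list and 48.75% over 10 of the Ad-GFP list. The base composition of the cluster spans themselves was not measured. The part of repeats and base composition in the lower density was not tested.

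By annotation class, 22 of the 66 Hox regions were at promoters, 32 were distal intergenic, 4 intronic, 2 exonic, 5 in a 3′ UTR and 1 in a 5′ UTR. The deposited promoter class covers 2 kb before to 1 kb after a start site. The promoter share was 33.3% (22.2% to 46.0%), against 7.69% of all other regions, and the intron share 6.06% (1.68% to 14.8%), against 34.1%. The exon and UTR share was 12.1% (5.38% to 22.5%), against 3.97%, and the distal share 48.5% (36.0% to 61.1%), against 52.6%. The intervals of the promoter, intron and exon shares exclude the value of the other regions, and that of the distal share includes it. Olfactory receptor regions gave 26.9% at promoters, 7.04% in introns and 9.65% in exons or UTRs, each inside the Hox interval. Histone gene regions gave 53.3%, 8.33% and 5%, of which the intron share lies inside. The space that introns and exons fill was not accounted for.

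The promoter share has to be read beside the space that promoters fill. Over the GENCODE spans of the clusters 52.5% of all bases lie in such a promoter window of some transcript, against 8.43% of the genome. Of the 58 regions in these spans 34 were in the promoter class, 58.6% (44.9% to 71.4%), an interval that includes 52.5%. The windows cover 72.2% of the Hoxa span, 40.9% of the Hoxb span, 40.9% of the Hoxc span and 66.8% of the Hoxd span. The share at promoters was thus close to the share of bases there.

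**Figure D4:**
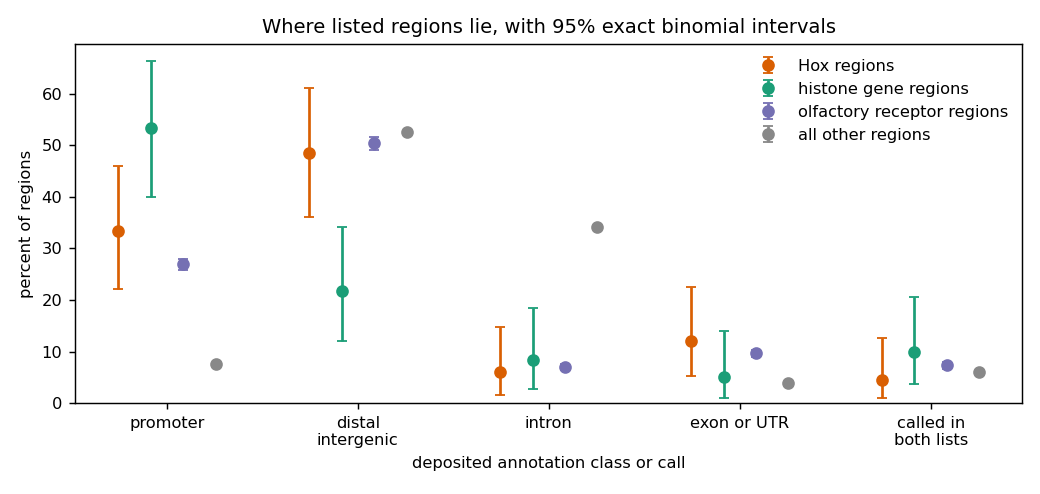
Share of regions (percent, vertical axis) in each deposited annotation class and called in both peak lists (horizontal axis), for Hox, histone, olfactory receptor and all other regions, with 95% exact binomial intervals. Promoter regions make up 33.3% of Hox regions and 7.69% of all others, and introns 6.06% and 34.1%.

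Reads by class and cluster were few. The 9 Hoxc promoter regions held 18 reads with Ad-Ets-1, 3 with Ad-GFP and 1 in the input, of which 10 with Ad-Ets-1 came from the Hoxc12 and Hoxc5 regions. Their ratio of Ad-Ets-1 to Ad-GFP was 5.50 (1.17 to 51.6), against 0.948 over all other promoter regions, and without the Hoxc12 region it was 3.66 (0.698 to 36.2), which includes 1. Of these 9 regions, 7 were called with Ad-Ets-1 alone and 2 with Ad-GFP alone. Regions entered the table as called peaks, so the ratio largely restates these calls and is no separate measure of a difference. This ratio was computed after the counts were seen, and the interval is not adjusted for the number of classes and clusters. The 23 distal Hoxc regions held 26, 27 and 1 reads. The 4 Hoxa promoter regions held 2, 8 and 1 reads, of which 5 with Ad-GFP came from the Hoxa10 region. The 6 Hoxb promoter regions held 7, 10 and 0 reads, and the 6 distal ones 2, 11 and 1. The 3 Hoxd promoter regions held 2, 4 and 0 reads and the 3 distal ones 8, 2 and 0. The remaining classes held at most 6 reads in any library and cluster, as for the 4 Hoxc regions in a 3′ UTR with 3, 6 and 0 reads.

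The longer ETS words CAGGAAGT and CCGGAAGT were searched on both strands in 200 bp at peak summits. They were found at 1 of 34 Hox peaks of the Ad-Ets-1 list, 2.94% (0.0744% to 15.3%), against 1.39% of all other peaks of the list. In the Ad-GFP list they were found at 0 of 35, which allows up to 10.0%, against 1.33%. The core GGAA, searched in the same way, was present in 88.2% of Hox windows of the Ad-Ets-1 list, against 87.5% of the others, and in 94.3% of those of the Ad-GFP list, against 87.4%. The only word lay in a region of the Hoxa6 promoter class, chr6:52208090-52208338, with 2 reads with Ad-Ets-1, 0 with Ad-GFP and 0 in the input. There CCGGAAGT is on the minus strand at chr6:52208234-52208241, within the coding part of exon 1 of Hoxa6. It is printed here with 10 bases to either side, plus strand, with the word as its reverse complement in capitals, because it is the one full ETS word within 200 bp at a Hox summit. In windows of 400 bp the words were found at 1 of 34 Hox peaks of the Ad-Ets-1 list and at 2 of 35 of the Ad-GFP list, 5.71% (0.6997% to 19.2%), against 2.72% and 2.69% of all other peaks.
Hoxa6 chr6:52208224-52208251: gggcttgtgtACTTCCGGtcggtgcctt

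In RefSeq promoters (GRCm38.p6, 250 bases before to 50 after a start), matched by symbol for 21 Hox genes, 0 of 23 promoters held either word, against 7.07% of the 32827 other promoters. A count of 0 of 23 allows up to 14.8%. The same Hox promoters had a median of 14 CpG, against 7 in the others. The absence of these letters from the windows says nothing about binding.

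Genes that act with or on the Hox clusters were described from 6 lists. Of all protein-coding genes 84.4% had a region, 52.3% a promoter region, 32% a promoter peak with Ad-Ets-1 and 41.3% one with Ad-GFP. The lists stand beside these shares, apart from that of genes in or beside the clusters, which includes noncoding genes. Of 9 cofactor genes, 9 had a region and 7 a promoter region, with promoter peaks at 6 with Ad-Ets-1 and 4 with Ad-GFP. Meis2, whose product binds DNA with Hox proteins, had 66 regions with 76 reads with Ad-Ets-1, 85 with Ad-GFP and 6 in the input. Of 12 Polycomb genes, 11 had a region and 6 a promoter region, with promoter peaks at 5 with Ad-Ets-1 and 4 with Ad-GFP. Cbx7, a chromodomain subunit of Polycomb complexes, had 15 regions with 35, 17 and 1 reads, Jarid2 21 regions with 23, 29 and 1, and Kdm2b 23 regions with 27, 25 and 3. The Cbx7 promoter held 9, 0 and 0 reads at chr15:79934207-79934883, with an interval of the ratio that begins at 0.755. Rnf2, the ubiquitin ligase of Polycomb complexes, had the deepest region of all lists, in a 5′ UTR at chr1:151478336-151478654, with 4 reads with Ad-Ets-1, 28 with Ad-GFP and 5 in the input. Its ratio was 0.131 (0.0144 to 0.570), and it was deeper than any Hox region. The region was named for its 5 input reads, and 0.0429% of all regions other than the Hox regions held 5 or more. The interval covers counting error only and is not adjusted for the number of regions in the lists.

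Of 6 Trithorax genes 5 had a region and 3 a promoter region. Kmt2a, the methyltransferase that maintains Hox expression, had 10 regions with 5, 23 and 0 reads with Ad-Ets-1, Ad-GFP and the input. Ash2l, a subunit of the same kind of complex, had 7 regions with 6, 9 and 4 reads. All 6 retinoic acid genes had a region and 3 a promoter region. Rarb, a retinoic acid receptor, had 82 regions with 77, 125 and 10 reads, while Cyp26b1, an enzyme that degrades retinoic acid, had 24 regions with 25, 32 and 1. Of 6 ParaHox genes 5 had a region and 0 a promoter region. Pdx1, the ParaHox factor of β-cells, had 6 regions with 6, 9 and 1 reads, and Gsx2 had 4 with 0, 12 and 0. Of 13 further genes in or beside the clusters, which include microRNA and long noncoding RNA genes, 5 had a region. The shares of protein-coding genes are no like reference for this list. Mir10b, next to Hoxd4, had 2 promoter regions with 0, 8 and 2 reads, the deeper one at chr2:74724473-74725030 with 0, 6 and 2, and Hotairm1 had 4 regions with 7, 3 and 0. Totals per gene are not scaled to the length of the gene and its surroundings, so they cannot be set against those of the short Hox genes.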

How the data were processed

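The deposited files, 3 in number, are a peak list for each Ets-1 precipitate and a table that compares them with the input. The submitters' processing notes name BWA 0.7.12, MACS2 2.1.0, Trimmomatic, FastQC and mm10; settings, and whether peaks were called against the input, are not stated. Per the file headers, each deposited peak has a score, a −log10 q-value, a −log10 p-value and a fold enrichment, which is a ratio; all were used within their own list. The table deposited by the authors holds read counts by region and library, RPM values (count plus 1, scaled to the library total), a ratio of RPM to the input and a log2 of the RPM ratio between viruses, per the file headers and values.

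Regions were chosen by deposited gene name, and some items that the rules select are not reported here. Members and lists were chosen with earlier results of these data known. Groups came from the sample titles. The table lacks a symbol for 61.1% of regions; matched by gene ID to GENCODE M21, these added 1 region, at the noncoding gene Hoxd3os1 (1, 0 and 0 reads with Ad-Ets-1, Ad-GFP and the input), which is not a member. Starts of the peak lists were raised by 1. Ratios used recovered library totals and a floor of 3 reads; intervals are exact binomial, conditional binomial on fragments, or Poisson, at the 95% level. No molecular identifiers are described, so PCR copies may be counted as separate reads and intervals cover counting error only. Named regions are those of 5 or more reads, the 3 Hox peaks of highest fold per list, the deepest promoter region per cluster, members without a region and up to 2 genes per further list, with Cbx7, Jarid2 and Kdm2b tied for most reads and Rnf2 named for a region of 5 input reads; those of 4 reads, called in both lists or with an input read, the Cbx7 promoter and the printed sequences were added after their values were seen. Scripts were tested on simulated data. Versions were scipy 1.17.1, pandas 2.3.3, numpy 2.4.6, matplotlib 3.10.9, pysam 0.24.0 and Python 3.11.15.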

Additional observations from a re-analysis of the deposited data

How the results depend on the processing

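No paired analysis was possible because there was a single library per condition. Of the 38 alternative values computed, 30 stayed within their error or within 1.5 times the main value, and 8 moved. Regions with 3 or more reads numbered 14 and with 5 or more reads 2, in place of 66. The promoter share was 19.7% within 1 kb only and 47.0% at a deposited distance of at most 3 kb. At a −log10 q of at least 2 there were 0 Hox peaks with Ad-Ets-1 and 0 with Ad-GFP. The GGAA core in place of the longer words gave 88.2% and 94.3%, a shorter word by construction. The ratio of Ad-Ets-1 to Ad-GFP ran between 0.579 and 1.10 over its alternatives. With any region inside the spans of listed members it was 0.579 (0.344 to 0.961) and inside GENCODE spans 0.607 (0.376 to 0.970), where the interval excludes 1 and includes the 0.781 of other regions. Without Hoxc13 it was 0.768 (0.453 to 1.30). The spans of GENCODE genes and the values without Hoxc13 were added after seeing the data. Depth is a limit beside the lack of replicates: 52 of the 66 regions held at most 2 reads in either precipitated library, and a difference between viruses was not detectable at single Hox regions.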

Other observations

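Inside the GENCODE spans of the clusters, 20 of the 58 regions had a gene outside the naming rule as their nearest gene. They held 18 reads with Ad-Ets-1, 35 with Ad-GFP and 2 in the input. The deepest with Ad-Ets-1 lay at the promoter of the gene Gm27817 in the Hoxa cluster, chr6:52247016-52247264, with 6, 0 and 0 reads, as many as at Hoxc12. The Hoxd span held 9 such regions with 4, 19 and 2 reads, among them 4 at Haglr, a long noncoding RNA gene of that cluster. Hotair, a long noncoding RNA gene of the Hoxc cluster, had 1 promoter region with 0, 2 and 0 reads. Evx2, the homeobox gene beside the Hoxd cluster, had 3 regions with 0, 7 and 0 reads.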
